A study of Mus musculus with 11 samples.

Results

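The Bcl2 family decides whether the outer membrane of the mitochondrion is opened during apoptosis, and 10 of its genes were described here in sorted mouse haematopoietic stem cells (HSC). They were taken by name: the pro-survival genes Bcl2, Bcl2l1 (Bcl-xL) and Mcl1, the pore-forming genes Bax and Bak1, and the BH3-only genes Bcl2l11 (Bim), Bbc3 (Puma), Pmaip1 (Noxa), Bid and Bad. All 10 were found among the 37991 genes of the count table. RNA-Seq libraries from C57BL/6 mice aged 8 weeks formed 3 groups, with 1000 bone marrow cells per library sorted as Lin- c-Kit+ Sca1+ CD135- CD48- CD150+. The NA10hd group (4 libraries) carried the NUP98-HOXA10HD fusion behind a stop cassette in the ROSA26 locus, released by Vav-Cre in blood cells. The NV group (3 libraries) carried a conditional NrasG12D allele released by the same Cre, and the control group (4 libraries) was labelled wild type. Vav-Cre acts in all blood cells from early development on, so both alleles were active in more than HSC. The study also calls the sequenced control cells littermate controls. In its other experiments that name stands for mice with the stop-cassette fusion allele, listed without Vav-Cre. The control genotype is therefore not certain.

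In healthy cells the pro-survival proteins hold Bax and Bak in check. Stress raises or activates BH3-only proteins, which bind the pro-survival proteins or engage Bax and Bak directly, and the pores that follow release cytochrome c to activate caspases. In mice, HSC are known to depend on Mcl1, and overexpressed Bcl2 is known to enlarge the HSC pool. Much of the control of this family lies in the proteins and not in transcript levels, which are all that was measured here.

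Libraries held 5464815 to 14283008 counts (median 10639180) on 13859 to 15900 genes. All 12 HSC marker genes were present in every group, with a summed level of 2873 to 3549 CPM (counts brought to a common library size with TMM factors) in control, 3406 to 3933 CPM in NA10hd and 2658 to 3096 CPM in NV libraries. Of these 12 markers, 5 were called higher in NA10hd than in NV, where 5.09% of all tested genes were called in either direction, and in NV 1 was called higher (Ly6a) and 2 lower (Procr and Fgd5) than in control, where 4.76% of genes were called. The B and T cell markers Cd3e, Ms4a1 and Pax5 had 0 counts in all 3 groups, and the 9 lymphoid markers summed to at most 4.29 CPM in any library. The 9 myeloid markers summed to 745 to 1073 CPM over all libraries, carried by Lyz2 and Prtn3, while Ly6g and Mpo had 0 counts in control. The 6 megakaryocyte markers spanned 310 to 336 CPM in control, 240 to 407 CPM in NA10hd and 277 to 593 CPM in NV. Within that sum, Pf4 ran from 16.1 to 28.5 CPM in control and 68.4 to 226 CPM in NV, and Vwf from 205 to 240 CPM in control and 95.3 to 150 CPM in NV, so that members differed in opposite directions. The 6 erythroid markers summed to 18.4 to 24.9 CPM in control, 15.6 to 31.7 CPM in NA10hd and 42.6 to 82.2 CPM in NV. In NV they were carried by Epor and Klf1, and Hba-a1 had 0 counts. The 7 endothelial and stromal markers summed to 107 to 156 CPM in control, 108 to 211 CPM in NA10hd and 47.5 to 65.3 CPM in NV, where Cdh5 and Lepr had 0 counts. The gate excluded Flt3 and Cd48, which together had 2.23 to 19.1 CPM. Y-linked counts without Xist were found in NA10hd replicates 1 to 3 and in control replicates 1 and 4, Xist alone in NA10hd replicate 4, and both in the other 5 libraries. A library with male and female cells would show both. The study calls the libraries of a group biological replicates, without saying which or how many animals each came from, and p-values measure the spread between these libraries.

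Bcl2 and Mcl1 showed the differences that stood farthest from their error, in different genotypes, and the 250 bases before their annotated starts are printed here to show how unlike these stretches are. Capitals mark matches, on either strand, to GGGCGG (GC box), CCGGAA (ETS core), TGACG (CRE core), TTCNNNGAA (STAT site), TTTNNCGC (E2F site) or GTAAACA (FoxO site), in NCBIM37.
Bcl2, chr1:108610852-108611101, minus strand: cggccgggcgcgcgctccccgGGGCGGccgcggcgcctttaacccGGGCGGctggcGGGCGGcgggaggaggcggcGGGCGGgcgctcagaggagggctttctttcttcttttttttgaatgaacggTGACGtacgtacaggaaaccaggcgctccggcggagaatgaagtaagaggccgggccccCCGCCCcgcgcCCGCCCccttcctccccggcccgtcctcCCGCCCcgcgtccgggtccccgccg
Mcl1, chr3:95462393-95462642, plus strand: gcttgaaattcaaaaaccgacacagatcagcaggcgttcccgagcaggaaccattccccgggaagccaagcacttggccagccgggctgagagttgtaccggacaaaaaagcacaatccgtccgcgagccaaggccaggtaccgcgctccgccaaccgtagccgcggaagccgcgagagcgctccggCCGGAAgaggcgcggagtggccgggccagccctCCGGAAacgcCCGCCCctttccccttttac
The Bcl2 stretch had 7 GC boxes and 1 CRE core and was 74.8% G or C. The Mcl1 stretch had 2 ETS cores and 1 GC box and was 64.4% G or C. Among 22337 protein-coding genes, 39.6% held a GC box in this window, 19.4% a CRE core, 13.9% an ETS core, 6.83% a STAT site, 5% an E2F site and 2.73% a FoxO site. Among the members, Bak1 and Bcl2l11 held the FoxO letters, and 0 of 10 held the STAT or the E2F letters.

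Levels were first compared between genes in control HSC, as CPM per kb of annotated exon. Mcl1 stood far above the rest at 215 CPM per kb, and its lowest control library (164) was above the highest Bcl2 library (14.1). Bcl2 (12.9), Bid (12.4) and Bad (11.3) followed, and neighbours among these 3 overlapped between libraries. Bcl2l1 (7.27) and Bax (4.89) came next and overlapped with each other. The transcripts of Bcl2l11 (1.57), Bbc3 (1.02), Bak1 (0.955) and Pmaip1 (0.785) were the scarcest, and each overlapped with its neighbour. The order near the top depends on the length used: per kb of the longest transcript, Bid (18.3), Bad (15.6) and Bcl2l1 (14.2) stood above Bcl2 (12.9). Mcl1 was also the highest member in NA10hd (191 CPM per kb) and NV (140 CPM per kb). In NA10hd, Bcl2 (6.94 CPM per kb) had rank 6, below Bad (16.3), Bcl2l1 (9.08), Bid (8.66) and Bax (7.76), against rank 2 in control. Its libraries there overlapped with those of Bcl2l1, Bid and Bax. Per kb of the longest transcript its rank was 5 in control and 6 in NA10hd.

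**Figure D1:**
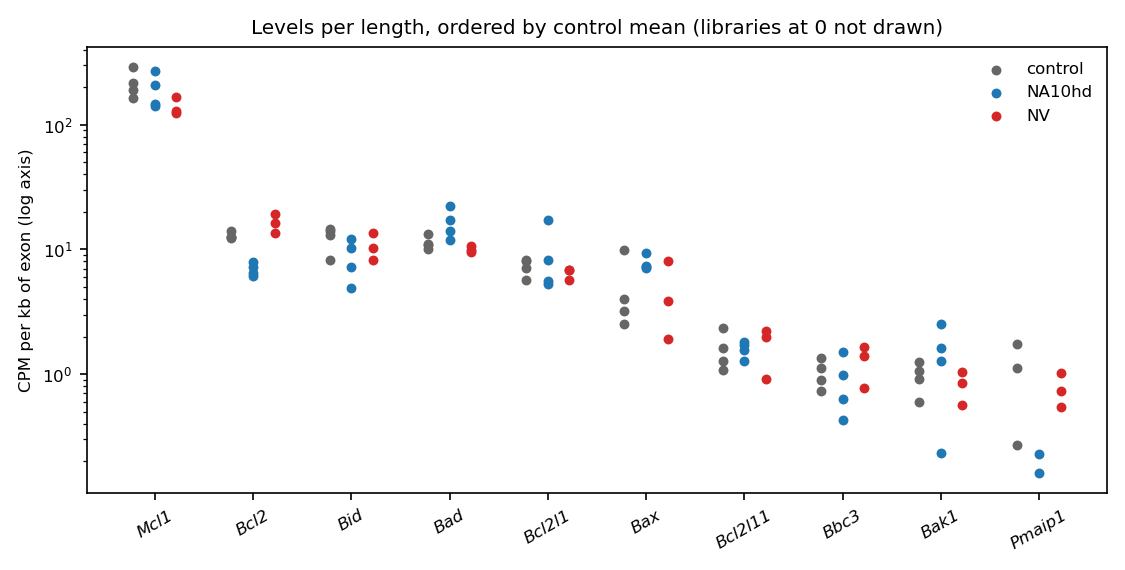
Level of each of the 10 genes per library, as CPM per kb of exon on a log axis, coloured by group and ordered by the control mean (libraries with 0 counts of Pmaip1 cannot be drawn). Mcl1 lies above all other members in every group (215 CPM per kb in control), and Bcl2 in NA10hd (6.94) drops into the range of Bax.

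Bcl2 itself, the founding pro-survival gene (ENSMUSG00000057329, chromosome 1, 108434755 to 108610851), had its lowest levels in NA10hd. It had 101, 90.5, 88.4 and 90.0 CPM in control replicates 1 to 4, 51.9, 57.1, 44.3 and 46.3 CPM in NA10hd replicates 1 to 4, and 97.6, 117 and 137 CPM in NV replicates 1 to 3. All NA10hd libraries lay below all others, and NV and control overlapped through NV replicate 1 and control replicate 1. The group means were 92.6 ± 5.94, 49.9 ± 5.78 and 117 ± 19.8 CPM in control, NA10hd and NV (mean ± SD, n = 4, 4 and 3). These rest on 326 to 1722 counts per library, and 558 exon bases are shared with D630008O14Rik on the other strand, which had 30 counts in all.

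Between NA10hd and NV, Bcl2 was 2.36-fold lower in NA10hd and passed the test. Its log2 fold change was -1.24 (standard error, SE, 0.20) with an adjusted p = 0.00525 in the quasi-likelihood test of edgeR, where calls required both adjusted p below 0.05 and more than 1.5-fold change. It was the 1 call among the 10 members in this comparison, against 5.09% of all 13461 tested genes (2.79% lower and 2.3% higher in NA10hd). The call was kept by 14 of 15 alternatives and was lost without NV replicate 3 (log2 fold change -1.11, edgeR adjusted p = 0.0591). Every NV library held both Xist and Y-linked counts and no NA10hd library did. A fit on libraries with the same mix could therefore not be run between these groups. Genotype and this mix cannot be told apart here, for Bcl2 or any other gene.

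Against control, the Bcl2 level in NA10hd was 1.85-fold lower, which did not pass the test. A fold change given for NA10hd or NV alone is against control. The log2 fold change was -0.89 (SE 0.17, edgeR adjusted p = 0.104, unadjusted p = 0.000166), and 0 of the 9 tested members were called, against 0.00766% of 13060 tested genes. An unadjusted p under 0.05 was found for 1 of the 9 members, Bcl2, and for 11.9% of all tested genes. DESeq2, the tool of the study's methods, called it (log2 fold change -0.89, adjusted p = 0.000743), as did edgeR with all 3 groups in one fit (adjusted p = 0.0331). Over the 17 alternatives the log2 fold change stayed between -0.96 and -0.84, and in libraries with Y-linked counts alone (3 NA10hd, 2 control) it was -0.90 (edgeR adjusted p = 0.989). In NV, Bcl2 had a log2 fold change of 0.33 against control (SE 0.14, edgeR adjusted p = 0.214), which was called by none of 16 alternatives. The comparisons with control share the same 4 libraries.

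**Figure D2:**
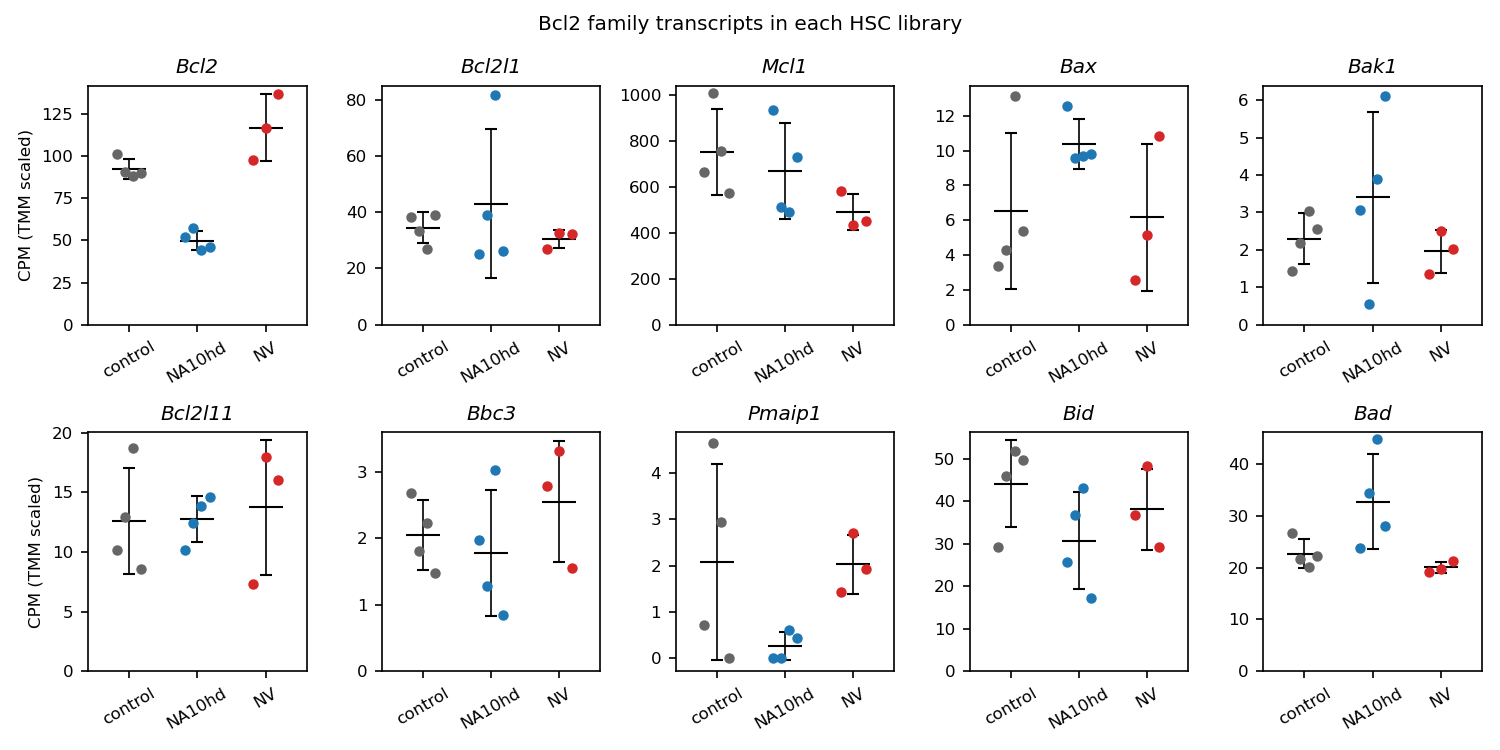
CPM of each gene in each library, by group, with the group mean (horizontal line) and SD (error bar). The 4 NA10hd libraries of Bcl2 (44.3 to 57.1 CPM) lie below all control (88.4 to 101) and NV (97.6 to 137) libraries, while most other members overlap between groups.

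The summed level of cycling cell genes had the same group order as Bcl2. The 15 genes of that list, among them Mki67 and Top2a, summed to 546 to 705 CPM in NA10hd, 879 to 1365 CPM in control and 2319 to 2696 CPM in NV, so the groups did not overlap. In NV 13 of the 15 were called higher than in control, and 14 of the 15 were called lower in NA10hd than in NV. Between NA10hd and control 0 of the 15 were called by edgeR, and 13 had an unadjusted p under 0.05. Within groups the orders differed. Control replicate 1 had the lowest sum of its group (879) and the highest Bcl2 level (101 CPM). NA10hd replicate 2 had the highest of both (705 and 57.1 CPM). NA10hd replicate 1, with the lowest sum (546), had more Bcl2 (51.9 CPM) than NA10hd replicates 3 and 4. NV replicate 1 had the lowest of both (2319 and 97.6 CPM). NV replicate 2, with the highest sum (2696), had less Bcl2 (117 CPM) than NV replicate 3 (137 CPM). In bulk libraries, a larger share of cycling cells and more RNA per cell cannot be told apart, and their part in the Bcl2 difference was not tested. B cells express Bcl2 strongly, and the B cell markers Ms4a1 and Pax5 had 0 counts in every group.

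**Figure D3:**
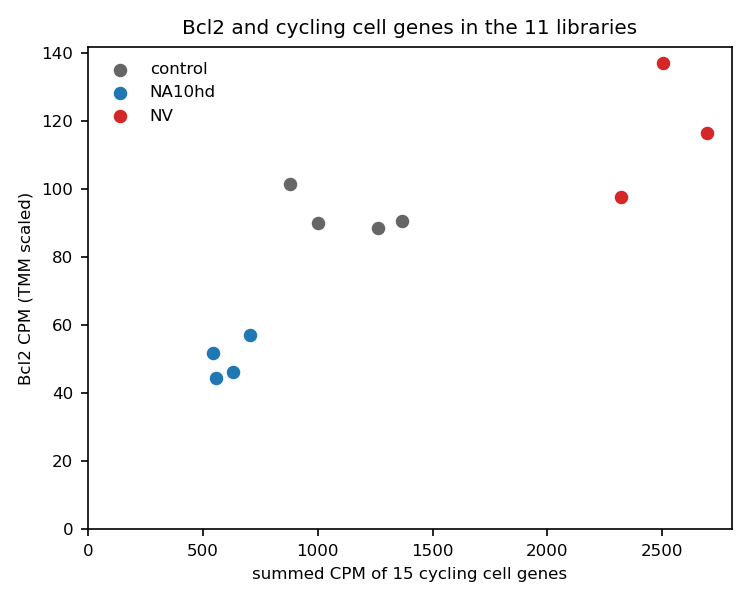
Bcl2 CPM (vertical axis) against the summed CPM of 15 cycling cell genes (horizontal axis), 1 point per library, coloured by group. The NA10hd libraries lie lowest on both axes (546 to 705 summed CPM), and the NV libraries lie farthest right (2319 to 2696).

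Genes whose pattern over the 11 libraries was among the most like that of Bcl2, by Pearson's correlation of log2 CPM among 9401 genes with at least 10 CPM on average, were Tfdp1 (0.953) and Prkdc (0.952). Tfdp1 encodes the dimerisation partner of E2F factors and Prkdc the DNA-dependent protein kinase. Tfdp1 had 119 ± 14.3, 64.1 ± 6.90 and 181 ± 16.1 CPM in control, NA10hd and NV (mean ± SD, n = 4, 4 and 3). With the group means removed, the correlations were 0.418 and 0.693, lower than over all libraries. These are descriptions over libraries that share a sort and a protocol.

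Mcl1, the short-lived pro-survival gene on which HSC are known to depend (ENSMUSG00000038612, chromosome 3, 95462643 to 95467099), was lowest in NV. It had 664, 1008, 755 and 571 CPM in control replicates 1 to 4, 934, 510, 491 and 730 CPM in NA10hd, and 580, 435 and 452 CPM in NV. NV replicate 1 overlapped with control replicate 4, and the other NV libraries lay below every control and NA10hd library. The means were 749 ± 188, 666 ± 209 and 489 ± 79.2 CPM in control, NA10hd and NV (mean ± SD, n = 4, 4 and 3).

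Against control, Mcl1 was 1.54-fold lower in NV, with a log2 fold change of -0.62 (SE 0.17, edgeR adjusted p = 0.0608), just outside the threshold. In this comparison 0 of the 10 members were called, against 4.76% of 13462 tested genes (2.21% lower and 2.55% higher in NV), while 2 members (Mcl1 and Bcl2) had an unadjusted p under 0.05, against 19.5%. The call depended on the setting. It was made by 6 of 16 alternatives, DESeq2 (adjusted p = 0.00481) and limma-voom (adjusted p = 0.0460) among them, and by edgeR without control replicate 4 (adjusted p = 0.0333). In the libraries with both Xist and Y-linked counts (3 NV, 2 control) the log2 fold change was -0.85 (edgeR adjusted p = 0.0322). In NA10hd it was -0.17 against control (SE 0.22, edgeR adjusted p = 0.815), and between NA10hd and NV it was 0.44 (SE 0.23, edgeR adjusted p = 0.327).

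Bcl2l1, which encodes the pro-survival protein Bcl-xL (ENSMUSG00000007659, chromosome 2, 152593052 to 152657464), was called in no comparison. Its NA10hd level was set by 1 library: it had 25.2, 38.8, 81.6 and 26.3 CPM in NA10hd replicates 1 to 4, 27.0 to 39.0 CPM in control and 26.9 to 32.5 CPM in NV. The log2 fold change in NA10hd was 0.33 (SE 0.35, edgeR adjusted p = 0.755) and turned to -0.19 without NA10hd replicate 3.

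The pore-forming genes had few counts and were called in no comparison. Per length, Bak1 was among the scarcest members, whereas Bax was not. Bax (ENSMUSG00000003873, chromosome 7, 52717065 to 52722268) had 3.40, 4.26, 13.2 and 5.38 CPM in control, 12.5, 9.55, 9.68 and 9.79 CPM in NA10hd, and 2.55, 5.14 and 10.8 CPM in NV. The NA10hd libraries stood together, whereas control and NV each spread more than 3-fold from 19 to 165 counts per library. Its log2 fold change in NA10hd was 0.66 (SE 0.50, edgeR adjusted p = 0.640), and it was 1.25 without control replicate 3 (edgeR adjusted p = 0.530). Bak1 (ENSMUSG00000057789, chromosome 17, 27156755 to 27165954) had 1.43 to 3.03 CPM in control, 0.557 to 6.10 CPM in NA10hd and 1.35 to 2.50 CPM in NV. It rested on 7 to 45 counts per library, and 357 of its exon bases are shared with Ggnbp1 on the other strand, whose reads could not be told apart without strand.

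Among the BH3-only genes, Bcl2l11 encodes Bim, which binds all pro-survival members and is a known target of FoxO factors (ENSMUSG00000027381, chromosome 2, 127951774 to 127988283). It had 8.61 to 18.7 CPM in control, 10.2 to 14.6 CPM in NA10hd and 7.32 to 17.9 CPM in NV, and the 3 groups overlapped. Its log2 fold changes against control were 0.02 in NA10hd (SE 0.37) and 0.11 in NV (SE 0.37), with edgeR adjusted p = 0.992 and 0.913. The 95% limits of the fold change, 0.611 to 1.67 in NA10hd and 0.657 to 1.77 in NV, leave room for changes in both directions.

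Bbc3 encodes Puma, a BH3-only protein induced by p53 (ENSMUSG00000002083, chromosome 7, 16894965 to 16903554). It had 6 to 49 counts per library and 2.05 ± 0.523, 1.78 ± 0.949 and 2.55 ± 0.908 CPM in control, NA10hd and NV (mean ± SD, n = 4, 4 and 3). Differences at this depth were within the spread, and it was called in no comparison.

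Pmaip1 encodes Noxa, which binds Mcl1 and is another known p53 target (ENSMUSG00000024521, chromosome 18, 66618258 to 66625204). It had 4, 49, 37 and 0 counts in control replicates 1 to 4, 0, 0, 7 and 3 counts in NA10hd, and 18, 40 and 20 counts in NV. A count of 0 allows up to 0.417 CPM in control replicate 4, 0.341 CPM in NA10hd replicate 1 and 0.246 CPM in NA10hd replicate 2, taken as 3 counts and covering counting error only. All NA10hd libraries lay below all NV libraries, and groups were separate, in either direction, in 21% of the 13461 genes tested there. The fitted log2 fold change between them was -2.93 (SE 1.30, edgeR adjusted p = 0.238), which was not a call. It ran from -3.91 (without NA10hd replicate 3) to -2.48 on leaving out a library, and was -3.62 by limma-voom and -4.26 with the replicate block, none of them a call. Against control Pmaip1 did not pass the filter on low counts in NA10hd, where the control libraries themselves ran from 0 to 4.64 CPM. In NV its log2 fold change against control was -0.07 (SE 0.97, edgeR adjusted p = 0.982).

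Bid links death receptors to mitochondria once caspase-8 has cut it (ENSMUSG00000004446, chromosome 6, 120841948 to 120866871). It had 29.3, 45.9, 51.7 and 49.6 CPM in control, 25.8, 36.7, 43.2 and 17.3 CPM in NA10hd, and 36.7, 48.2 and 29.3 CPM in NV. The groups overlapped, with a log2 fold change of -0.51 in NA10hd (SE 0.30, edgeR adjusted p = 0.520). Its exons share 628 bases with Bcl2l13, a related gene on the other strand.

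Bad is held inactive by survival kinases through phosphorylation (ENSMUSG00000024959, chromosome 19, 7016351 to 7026388). It had 26.6, 21.7, 20.2 and 22.3 CPM in control, 23.7, 34.5, 44.8 and 28.1 CPM in NA10hd, and 19.2, 19.7 and 21.3 CPM in NV. All NA10hd libraries lay above all NV libraries, and NA10hd replicate 1 fell within the control range. The log2 fold change was 0.71 between NA10hd and NV (SE 0.30, edgeR adjusted p = 0.220) and 0.54 between NA10hd and control (SE 0.27, edgeR adjusted p = 0.454), neither of them a call. Its exons share 517 bases with Gpr137 on the other strand.

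Counted by whether libraries of the groups overlapped, 3 of the 10 members (Bcl2, Pmaip1 and Bad) were separate between NA10hd and NV, against 21% of all tested genes. Between NA10hd and control 1 of 9 (Bcl2) was separate, against 7.82%, and between NV and control 0 of 10, against 18.9%. The median log2 fold change of the tested members was 0.02 in NA10hd, -0.14 in NV and 0.16 between NA10hd and NV, where the medians of all tested genes were 0.02, -0.01 and 0.01.

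**Figure D4:**
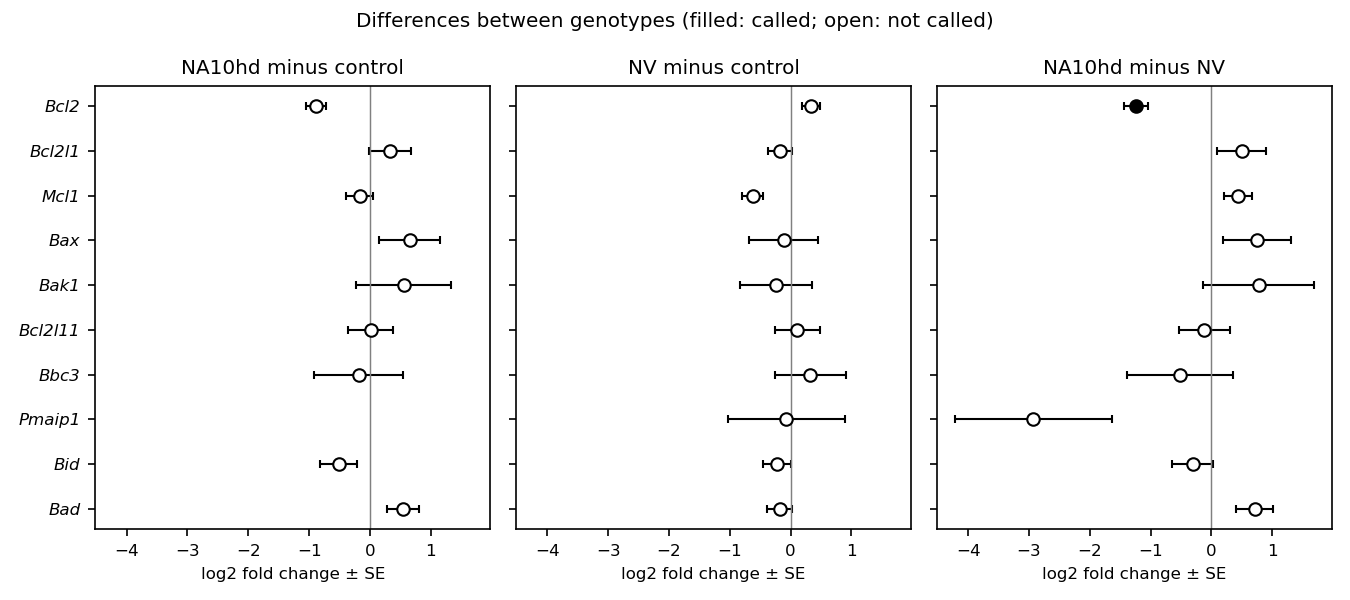
Log2 fold change of each gene (horizontal axis, bars show the SE) in the 3 comparisons, with filled points for calls and open points for values not called. Bcl2 between NA10hd and NV (-1.24) is the 1 filled point, and Pmaip1 did not pass the filter on low counts between NA10hd and control.

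Ratios of 2 members within a library do not depend on its scaling, and they were described without a test, as the members were chosen with results of these data known. The log2 ratio of Bax to Bcl2 counts was -2.27 ± 0.23, -4.03 ± 0.92 and -4.47 ± 0.80 in NA10hd, control and NV (mean ± SD, n = 4, 4 and 3). Every NA10hd library (-2.58 to -2.05) lay above every control (-4.90 to -2.75) and NV (-5.26 to -3.66) library. The ratio of Bcl2l11 to Bcl2 had means of -1.97 in NA10hd, -2.94 in control and -3.18 in NV, where NA10hd (lowest -2.35) and control (highest -2.24) overlapped. The ratio of Mcl1 to Bcl2 was 3.69 ± 0.46, 2.99 ± 0.38 and 2.06 ± 0.45 in NA10hd, control and NV (mean ± SD, n = 4, 4 and 3). All NV libraries (1.72 to 2.57) were below all control libraries (2.67 to 3.48), and NA10hd (3.16 to 4.17) overlapped with control. The ratio of Bcl2l1 to Mcl1 overlapped in all 3 groups.

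**Figure D5:**
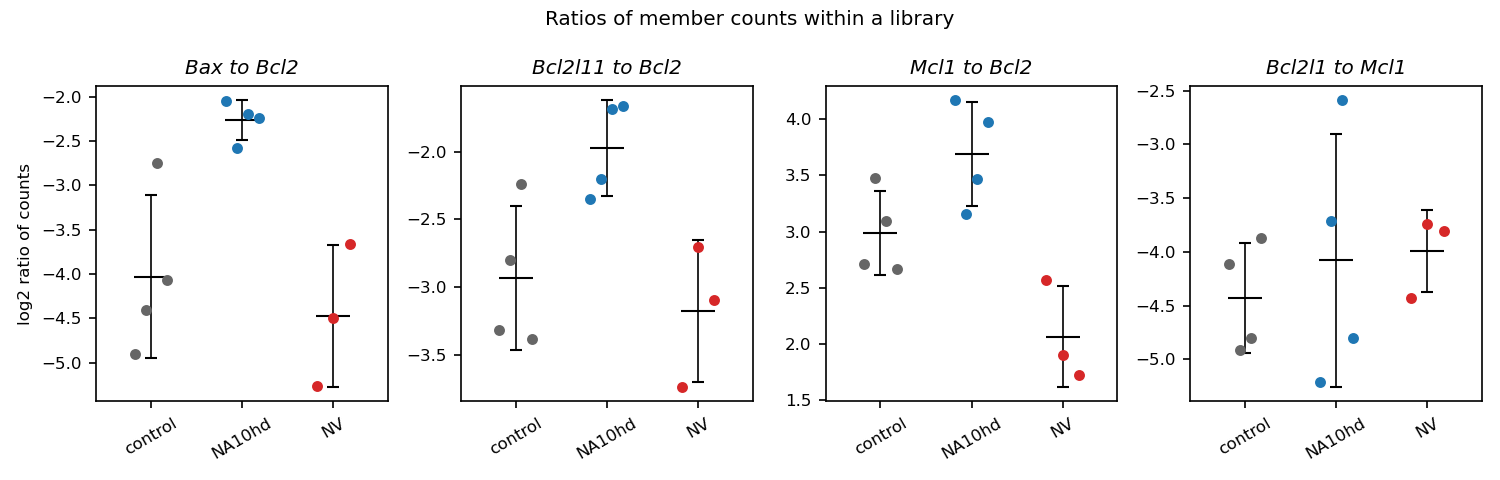
Log2 ratios of counts of 2 members in each library, by group, with the group mean (horizontal line) and SD (error bar). For Bax to Bcl2, the NA10hd libraries (-2.58 to -2.05) lie above all others, and for Mcl1 to Bcl2 the NV libraries (1.72 to 2.57) lie below all others.

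Of 16 other Bcl2 family genes, 7 were tested in NA10hd and 8 in the remaining comparisons, and 0 were called in any of the 3 by edgeR. An unadjusted p under 0.05 was found for 0, 1 and 2 of them, against 11.9%, 19.5% and 19.5% of all tested genes. DESeq2 called 1 of them, Bmf, a BH3-only gene, between NA10hd and NV (log2 fold change 2.04, adjusted p = 0.00554; 0.0692 by edgeR). Bmf, named here after its values were seen, had 9.95, 17.6, 22.5 and 10.4 CPM in NA10hd, 6.44 to 9.66 CPM in control and 2.31, 2.57 and 6.38 CPM in NV, so that the 3 groups did not overlap. Bcl2l14 had the largest log2 fold change of the list, -2.16 between NA10hd and NV (SE 1.10, edgeR adjusted p = 0.316), from 16 counts in NA10hd and 66 in NV. The 4 Bcl2a1 copies, which can share reads, had at most 14 counts in any group, and Hrk had 0 counts in all libraries.

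Downstream of the pore, all 17 genes for cytochrome c, the apoptosome, caspases and their inhibitors were tested. None was called against control by edgeR, where 1 (NA10hd) and 2 (NV) had an unadjusted p under 0.05, and their medians were -0.05 in NA10hd and 0.22 in NV. DESeq2 called Apaf1, the scaffold of the apoptosome, in NV (log2 fold change 0.69, adjusted p = 0.0190). Cycs, which encodes cytochrome c, was the 1 call between NA10hd and NV by edgeR, against 5.09% of all tested genes. It had 28.7 ± 4.07, 42.9 ± 8.09 and 63.1 ± 3.17 CPM in NA10hd, control and NV (mean ± SD, n = 4, 4 and 3), with a log2 fold change of -1.15 (SE 0.22, edgeR adjusted p = 0.0135). The call was lost without any one of NV replicates 1, 2 or 3 (adjusted p up to 0.0997). Among genes called in no comparison, Endog had the largest log2 fold change, 1.24 in NA10hd (SE 0.79, edgeR adjusted p = 0.561).

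Of 12 death receptor genes, 11 were tested and 0 were called in any comparison by edgeR or DESeq2, with 1, 0 and 1 at an unadjusted p under 0.05 in NA10hd, in NV and between them. Fadd, the adaptor that recruits caspase-8, had the largest value, 1.03 in NA10hd (SE 0.30, edgeR adjusted p = 0.266).

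Of 17 genes of the p53 pathway outside the family, 15 were tested. In NV 1 was called against control, higher, and between NA10hd and NV 1 was called in each direction. Over all tested genes 4.76% and 5.09% were called in these comparisons. An unadjusted p under 0.05 was found for 3, 5 and 3 of the 15 in NA10hd, in NV and between them. The shares over all tested genes were 11.9%, 19.5% and 19.5%. Gtse1, a G2 phase gene that also binds p53, had 5.41 ± 0.804, 1.65 ± 0.878 and 17.8 ± 5.77 CPM in control, NA10hd and NV (mean ± SD, n = 4, 4 and 3). Its log2 fold change was 1.70 in NV (SE 0.32, edgeR adjusted p = 0.00893) and -3.42 between NA10hd and NV (SE 0.58, edgeR adjusted p = 0.00711). The second was lost without NV replicate 1 or 2. The first was lost with all 3 groups in one fit, with the replicate number as a block and in the libraries with both Xist and Y-linked counts. Its group order was that of the summed cycling cell genes. Btg2, an antiproliferative p53 target, was higher in NA10hd than in NV, at 331 ± 89.2 and 190 ± 7.45 CPM (mean ± SD, n = 4 and 3), with a log2 fold change of 0.79 (SE 0.20, edgeR adjusted p = 0.0478). It was called in 1 of 7 fits that left out a library, that without NA10hd replicate 2, and was lost with the block. In NA10hd, Gtse1 had -1.70 (SE 0.65, edgeR adjusted p = 0.346), which was not called. Among genes called in no comparison, Perp, a p53 target, had the largest log2 fold change, -1.65 in NV (SE 0.46, edgeR adjusted p = 0.0605), and was called by DESeq2. Cdkn1a, which encodes the cell cycle inhibitor p21 and is named here after its values were seen, had 11.8 ± 5.41, 30.6 ± 28.7 and 13.0 ± 2.05 CPM in control, NA10hd and NV (mean ± SD, n = 4, 4 and 3), and was called in no comparison.

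Of 11 genes listed as regulators of the family or as stress response genes, 10 were tested against control. In NV 2 were called, both lower, and between NA10hd and NV 2 of 9 were called higher and 1 lower in NA10hd. Over all tested genes 4.76% and 5.09% were called in these comparisons. In this list, chosen with earlier results known, 3 of 10 in NA10hd had an unadjusted p under 0.05. So had 4 of 10 in NV and 7 of 9 between NA10hd and NV. The shares over all tested genes were 11.9%, 19.5% and 19.5%. DESeq2 also called Atf4 (0.60, adjusted p = 0.00323) and Myc (-0.81, adjusted p = 0.0394) between NA10hd and NV. In NV, Atf4 had a log2 fold change of -0.54 against control (SE 0.12, edgeR adjusted p = 0.0231). It was not called there because the change was under 1.5-fold. Trib3, a target of the stress factor Atf4, had 38.6 ± 7.82, 44.2 ± 9.51 and 16.1 ± 4.13 CPM in control, NA10hd and NV (mean ± SD, n = 4, 4 and 3). Its log2 fold change was -1.27 in NV (SE 0.25, edgeR adjusted p = 0.0126), lost without NV replicate 2 and in the libraries with both Xist and Y-linked counts, and 1.45 between NA10hd and NV (SE 0.31, edgeR adjusted p = 0.0224), lost without any one of NV replicates 1, 2 or 3. Chac1, another such target, had 0 counts in NV and 0 to 45 counts per library in control, and was at least 24.0-fold lower in NV than in control on average, where 3 counts over the NV group set the limit at 0.0820 CPM. The bound was 14.8-fold without control replicate 2, which held the 45 counts. Its call (edgeR adjusted p = 0.0410) was kept without control replicate 1 and lost without any one of NV replicates 1, 2 or 3, and the gene did not pass the filter on low counts without control replicate 2, 3 or 4. The call was also lost by limma-voom, with all 3 groups in one fit and with the block. Foxo1, a FoxO factor, had 105 ± 13.6 and 56.1 ± 15.9 CPM in NA10hd and NV (mean ± SD, n = 4 and 3), with a log2 fold change of 0.89 (edgeR adjusted p = 0.0451). E2f1 had 11.1 ± 6.28 and 38.2 ± 18.6 CPM in NA10hd and NV (mean ± SD, n = 4 and 3), with a log2 fold change of -1.80 (edgeR adjusted p = 0.0445). Foxo1 was called in 2 of 7 fits that left out a library (without NA10hd replicate 2 or NV replicate 1) and E2f1 in 1 of 7 (without NA10hd replicate 4). Among genes called in no comparison, Foxo4 had the largest log2 fold change, 1.47 between NA10hd and NV (SE 0.63, edgeR adjusted p = 0.223).

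Of 12 genes that act on the Mcl1, Bim or Bad proteins, 11 were tested and 1 was called by edgeR, Pim1. It was the 1 call in NV and the 1 between NA10hd and NV, against 4.76% and 5.09% of all tested genes. An unadjusted p under 0.05 was found for 0, 3 and 4 of the 11 in NA10hd, in NV and between them. The shares over all tested genes were 11.9%, 19.5% and 19.5%. DESeq2 also called Pim3 between NA10hd and NV (log2 fold change 0.81, adjusted p = 0.0460). Pim kinases phosphorylate Bad. Pim1 had 12.2 ± 6.31, 25.5 ± 17.1 and 3.72 ± 1.29 CPM in control, NA10hd and NV (mean ± SD, n = 4, 4 and 3). It was called lower in NV than in control (log2 fold change -1.71, SE 0.44, edgeR adjusted p = 0.0441) and higher in NA10hd than in NV (2.75, SE 0.60, edgeR adjusted p = 0.0254). The first was kept in 1 of 7 fits that left out a library (that without control replicate 4), and the second in 4 of 7, lost without any one of NV replicates 1, 2 or 3. Both were lost by limma-voom, and the first was also lost with all 3 groups in one fit, with the block and in the libraries with both Xist and Y-linked counts. In NA10hd, Pim1 had 1.05 (SE 0.50, edgeR adjusted p = 0.434), which was not called. Among genes called in no comparison, Dynll2, a light chain that binds Bmf, had the largest log2 fold change, 0.97 between NA10hd and NV (SE 0.40, edgeR adjusted p = 0.207). The genes Huwe1, Usp9x and Fbxw7, which set the stability of the Mcl1 protein and are named after their values were seen, were called in no comparison.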

How the data were processed

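Sorted HSC were amplified as cDNA by the authors, who prepared Nextera XT libraries and sequenced them on a NextSeq500. The deposited file holds raw counts per Ensembl gene, made by the authors with Hisat2 on NCBIM37 and featureCounts. Versions, annotation, strand and multi-mapping settings are not given in the sources used here. Of 37991 IDs, 37205 had a symbol and position in GENCODE vM1 (NCBIM37).

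Counts were tested with edgeR 4.0.16 (R 4.3.3), with TMM factors, filterByExpr and the quasi-likelihood test. Each comparison was fitted on its own libraries, with Benjamini-Hochberg adjustment over all tested genes. Standard errors are the log2 fold change divided by the square root of F. Alternatives used DESeq2 1.42.0 and limma 3.58.1, and the code was tested on simulated data. Levels are CPM with TMM factors from all 11 libraries, divided by merged exon length where genes are compared.

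Members and lists were chosen with earlier results of these data known. Named were all members and, from each list, genes called in any comparison (up to 6) and the largest log2 fold change among genes called in no comparison. Genes like a called member were the 3 of highest correlation outside the lists, of which 1 is not reported here. Of the p53 list, Tigar was not matched by symbol. Counting precision follows each library's depth, and limits from a count of 0 use 3 counts. Figures were drawn with matplotlib 3.10.9.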

Additional observations from a re-analysis of the deposited data

Results flagged for a closer look

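Among 44 checks of groups of 4 libraries (levels, ratios and marker sums), 2 had 1 library far from the others by Dixon's test at its 95% level, which chance alone gives in about 1 of 20 groups. Control replicate 1 had the highest Bcl2 level of its group, 101 CPM, where the nearest of the others had 90.5 CPM. NA10hd replicate 1 had 12.5 CPM of Bax, where the nearest of the others had 9.79 CPM.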

How the results depend on the processing

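Bak1, Bbc3 and Pmaip1 rest on at most 49 counts per library, where small changes were not detectable. DESeq2 called 161 genes between NA10hd and control (1 by edgeR), 989 between NV and control (641 by edgeR) and 1307 between NA10hd and NV (685 by edgeR). Of these last, 728 were higher and 579 lower in NA10hd, against 309 and 376 by edgeR. Between NA10hd and control, limma-voom called 2 genes, no filter 8, a minimum of 10 counts per library 8, a fit of all 3 groups 39, and libraries of the same sex mix 0. With all 3 groups in one fit, 155 genes were called between NV and control and 1152 between NA10hd and NV, and with the same sex mix 301 in NV. The latter could not be run between NA10hd and NV. Leaving out a library gave 0 to 5, 263 to 643 and 146 to 771 calls in these 3 comparisons, lowest without NV replicate 3 in both that use NV. Among members, 1 was called in NA10hd by DESeq2 and with all 3 groups (Bcl2), and 1 in NV by DESeq2, limma-voom, no filter, the stricter filter and the same sex mix (Mcl1), with 0 to 1 on leaving out a library in NV and between NA10hd and NV, and 0 to 0 in NA10hd. Genes of the other lists called were 1 with all 3 groups in NV (4 in the reported fit), 11 by DESeq2 between NA10hd and NV (7 in the reported fit), and 0 to 0, 1 to 5 and 0 to 7 on leaving out a library. The replicate block gave 0, 432 and 581 calls over all genes, 0, 0 and 1 over members, and 2 over the other lists in NV. Same-numbered libraries had correlations of -0.0875 to 0.0264 between groups, and a library correlated best with its own number in 4 of 20 checks, so the numbers were not taken as pairs. Uncalled members changed sign in NA10hd with the same sex mix (Mcl1 0.060, Bbc3 0.013) and limma-voom (Bak1 -0.083, Bcl2l11 -0.025). They did so in NV with the same sex mix (Bcl2l1 0.012, Bcl2l11 -0.21), limma-voom (Bcl2l11 -0.0019, Pmaip1 0.74) and the block (Bcl2l11 -0.073). Leaving out a library gave ranges that cross 0 for Bcl2l1 (-0.19 to 0.52), Mcl1 (-0.37 to 0.0065), Bcl2l11 (-0.13 to 0.27) and Bbc3 (-0.58 to 0.038) in NA10hd, for Bax (-0.79 to 0.49), Bcl2l11 (-0.13 to 0.41) and Pmaip1 (-0.47 to 0.66) in NV, and for Bcl2l1 (-0.029 to 0.69) and Bcl2l11 (-0.42 to 0.12) between NA10hd and NV. With the longest transcript in place of merged exons, control levels were 14.2 CPM per kb for Bcl2l1, 2.51 for Bcl2l11, 18.3 for Bid and 15.6 for Bad, all but Bcl2l11 then above Bcl2. The cause of these changes was not tested.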

Other observations

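Trp53 (p53), the regulator upstream of Bbc3 and Pmaip1, differed more between libraries of 1 group than between groups. It had 10, 406 and 756 counts in NV replicates 1 to 3, that is 0.796, 27.5 and 73.0 CPM, although NV replicate 1 was not the shallowest of them. Control libraries had 54.7 to 109 CPM and NA10hd libraries 21.1 to 92.8 CPM. In NV replicate 1, Pmaip1 (1.43 CPM) was lowest of the NV libraries but within the control range. Bbc3 (2.79 CPM) lay above the highest control library (2.68 CPM), and Bax (2.55 CPM) below the lowest (3.40 CPM). In each group the library with the most Trp53 also had the most Bax. These were control replicate 3 (13.2 CPM of Bax), NA10hd replicate 1 (12.5 CPM) and NV replicate 3 (10.8 CPM). The library with the least Trp53 had the least Bax in NV only, and this relation was not tested. The log2 fold change of Trp53 was -1.16 in NV (SE 0.76, edgeR adjusted p = 0.461) and -0.71 in NA10hd (SE 0.40, edgeR adjusted p = 0.506). What sets NV replicate 1 apart in this gene was not tested.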
